A study of Mus musculus with 31 samples.

Results

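In hybrid mice, some of the strongest DMC1 hotspots, which mark meiotic breaks, had no hotspot of either parental strain centred at the same place. In all, 6 such places are described here. At 5 of them no parental hotspot overlapped, while the Tollip hotspot overlapped one of its parent 13R. Each is named by the gene that holds it or has the nearest end: Met, Gfra1, Pdlim1, Prdm9, Tollip and Gm2244. They were taken from lists of DMC1 hotspots. In each cross with B6, the rule took the strongest hotspot on chromosomes 1 to 19, by the deposited strength score, whose centre lay 400 bp or more from every hotspot centre of both parental lists. Hotspots that meet this distance rule are called hybrid-only below. The 6 places came from 9 of the 10 crosses with B6, because both B6 by C3H crosses chose Met and 3 crosses chose Gm2244. They were picked from 23998 hybrid-only hotspots in the 10 crosses, out of 392225 autosomal hotspots in 26 lists. Strength and absence from the parental lists chose the places, so these values are a description without a test. Presence in other crosses was not used by the rule.

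The study mapped breaks in testis by DMC1 SSDS, in which an anti-DMC1 antibody recovers the single strands that this recombinase coats, for sequencing. There were 26 lists from 1 library each: 19 of F1 hybrids, 6 of inbred strains and 1 of a Prdm9 knockout, B6;129P2-Prdm9<tm1Ymat>/J. Of the inbred strains, PWD/PhJ (called PWD here), MOLF/EiJ (MOL) and CAST/EiJ (CAST) were crossed with each other and with C57Bl/6J (B6), C3H/HeJ (C3H) and B10.F-H2pb1/(13R)J (13R), though not in every pair. B6, C3H and 13R were also crossed among themselves, in 5 crosses. A cross such as B6fXPWDm had a B6 mother and a PWD father. The lists held between 10445 and 30929 hotspots, read depth is unknown, and no value has a replicate error. The sources used here give neither the animals' ages nor any pooling of testes. According to the series text, a library wrongly labelled as a CAST by 13R cross had been taken out. The record it names carries the label CAST here, so values for the CAST list assume that this label is right.

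Meiotic recombination begins with programmed double-strand breaks, whose ends are resected to single strands that DMC1 coats. In mice PRDM9 chooses most break sites: its zinc fingers bind a DNA motif and its methyltransferase domain marks the flanking nucleosomes. The zinc fingers differ between strains, so strains with different Prdm9 alleles break at different places. In a hybrid, the PRDM9 of either parent can bind the chromosomes of both. A place broken in a hybrid can therefore be silent in both parents, because a parent may have the protein without the bound sequence or the sequence without the protein.

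**Figure D1:**
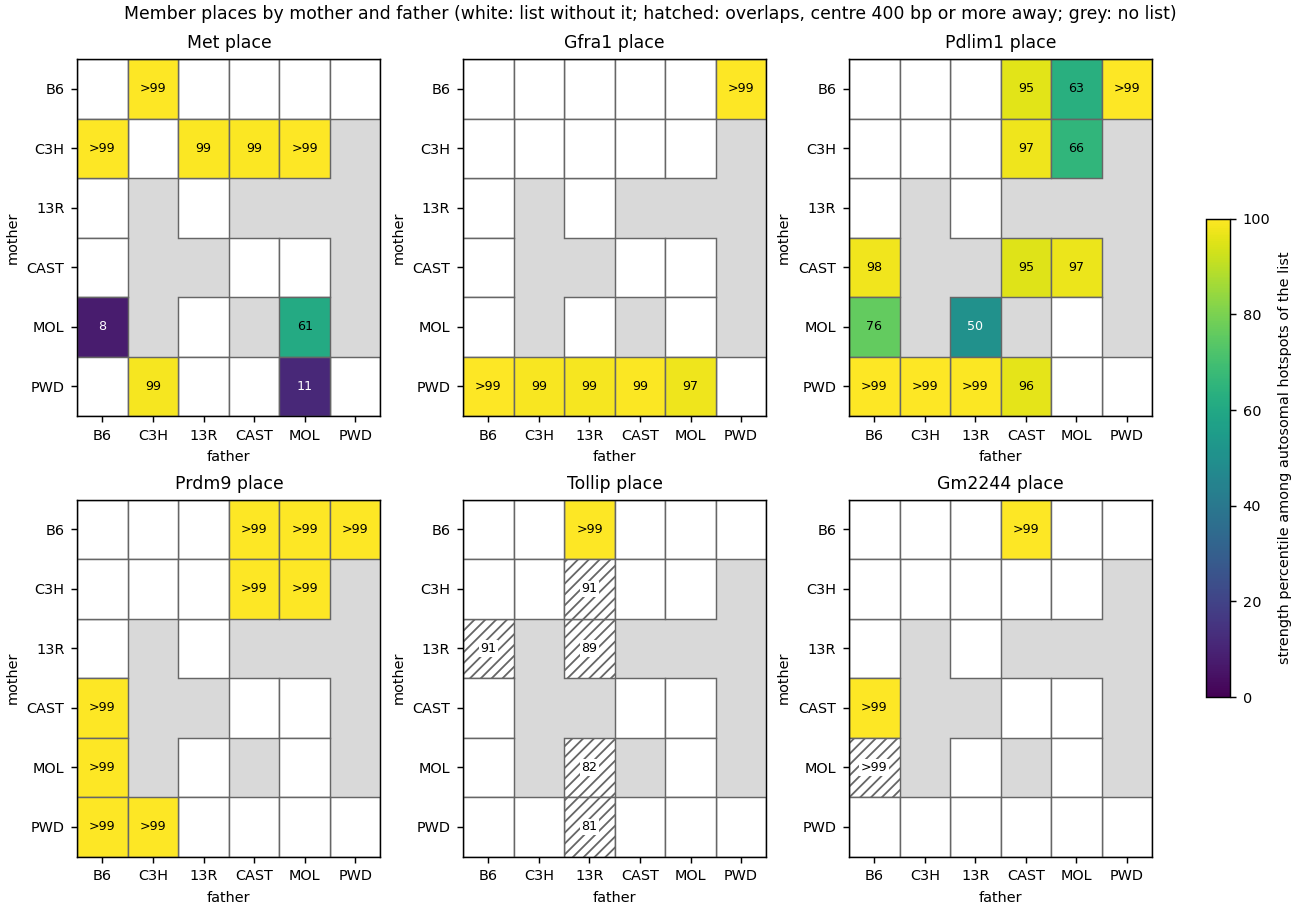
Presence of the 6 places by mother (rows) and father (columns). Coloured cells are lists with a hotspot centre under 400 bp from the place and give its strength percentile among autosomal hotspots of that list; hatched cells overlap the place but are centred 400 bp or more away, white cells lack it, and grey cells have no list. Every C3H cross is coloured at Met and every PWD cross at Gfra1, while the inbred C3H and PWD cells there are white. Met also has 3 coloured cells without C3H, and the Prdm9 cells are the 9 crosses of B6 or C3H with CAST, MOL or PWD. The knockout list held none of the places and is not drawn.

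Met encodes the receptor tyrosine kinase for hepatocyte growth factor. Its hotspot lay inside the gene (6:17463349-17573980, plus strand, GRCm38.p6, the primary assembly of mm10), 45599 bp from the 3′ end. The place followed C3H. It was strong in all 6 crosses with a C3H parent and absent from the inbred C3H list, where the nearest centre lay 21113 bp away, and from the B6 list, at 43938 bp. It ranked 3 among autosomal hotspots in B6fXC3Hm (6:17526180-17530583) and 3 in C3HfXB6m (6:17526061-17530710). Among the C3H crosses without B6 it ranked 33 in C3HfXMOLm, 82 in C3HfXCASTm, 100 in C3HfX13Rm and 225 in PWDfXC3Hm. As a part of summed autosomal strength it held 0.0844% in B6fXC3Hm and 0.0765% in C3HfXB6m, and between 0.0331% and 0.0535% in the other 4. The crosses with B6 had the highest parts, but of the 8 other crosses with B6 1 had the place.

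In all, 3 lists without C3H also had a weak hotspot there, and each had a MOL parent. Inbred MOL had it at percentile 60.7 (rank 5733), PWDfXMOLm at percentile 11.1 and MOLfXB6m at percentile 7.59. B6fXMOLm, CASTfXMOLm and MOLfX13Rm lacked it. In the 17 crosses other than those of B6 with C3H, the place was present in 4 of 4 with C3H and in 2 of 13 without (Fisher's exact test, two-sided, p = 0.00630). Adjusted over all 23998 hybrid-only hotspots by the Benjamini-Hochberg method the Fisher's exact p was 0.0417. In that test 16.3% of the hybrid-only hotspots of B6fXC3Hm, and 7.32% of those of C3HfXB6m, were present more often in crosses with C3H. The call was narrow: leaving out any 1 of 15 of the 17 crosses took the adjusted p to between 0.0535 and 0.127, and it held without MOLfXB6m or PWDfXMOLm. For a B6 parent the presence was 1 of 8 with and 5 of 9 without (Fisher's exact test, adjusted p = 0.530). By that test 0.0% of all hybrid-only hotspots, 0 of 23998, went with B6, and 2635 had an unadjusted exact p under 0.05. The test left out the crosses of B6 with the partner strain, so every C3H cross in it counted as without B6. It therefore leaned against B6 for a place that follows its partner, and cannot decide whether such a place goes with B6. Over all crosses 15.1% went with the partner strain. Crosses share parents, and these p-values treat them as independent. No other hybrid-only hotspot of B6fXC3Hm had the pattern of Met over the 26 lists, which includes the 3 weak hotspots without C3H. How many lay in every C3H cross and in no other list is not given here. The most similar lay inside Gpr35, Zgrf1 and Dlg1, with Jaccard indices (lists shared over lists holding either) of 0.75, 0.70 and 0.67.

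Gfra1 encodes the co-receptor that binds GDNF together with RET and is used by spermatogonial stem cells. The hotspot was centred just outside the gene (19:58235581-58455946, minus strand), 1024 bp beyond its 3′ end. Its interval in B6fXPWDm covered that end and reached 812 bp into the gene. It followed PWD without exception at this distance rule: all 6 crosses with a PWD parent had it and none of the other 20 lists did. It was the strongest autosomal hotspot of B6fXPWDm (19:58232722-58236393) and ranked 7 in PWDfXB6m. Next came PWDfXCASTm at rank 141, PWDfX13Rm at 156, PWDfXC3Hm at 169 and PWDfXMOLm at 387. Inbred PWD had no centre closer than 12246 bp, and B6 none closer than 27722 bp.

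The part of summed autosomal strength was higher in the crosses with B6 than in the rest. It was 0.0948% in B6fXPWDm and 0.0920% in PWDfXB6m, against 0.0251% to 0.0408% in the other 4 crosses. Strength in a cross with B6 chose the place, so the gap is a description. How many other hybrid-only hotspots of B6fXPWDm show such a gap is not given here. In crosses other than those of B6 with PWD the place was present in 4 of 4 with PWD and 0 of 13 without. Fisher's exact test gave p = 0.000420, the smallest these crosses allow, and an adjusted p of 0.00939. Of the hybrid-only hotspots of B6fXPWDm, 17.6% were present more often in crosses with PWD by the same test. The exact pattern, all PWD crosses and no other list, was found at 7.29% of the hybrid-only hotspots of the cross, 287 with Gfra1 counted. After Gfra1 itself the strongest lay near Prickle1, a planar cell polarity gene, at rank 30, and inside Ganab and Mllt3 at ranks 66 and 81.

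Pdlim1 encodes a PDZ and LIM domain protein of the actin cytoskeleton. Its hotspot (19:40220636-40225637 in PWDfXB6m) covered the 3′ end of the gene (19:40222239-40271616, minus strand), with its centre 897 bp inside. It was the most widespread of the 6 places, in 14 of the 26 lists, against a median of 5 lists for hybrid-only hotspots of that cross. The place was present in 13 of the 14 crosses that had CAST, MOL or PWD as a parent and in 0 of the 5 crosses among B6, C3H and 13R. The exception was PWDfXMOLm. This grouping was chosen after the values were seen and was not tested.

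Strength at Pdlim1 was graded by parent. With PWD and a B6, C3H or 13R parent the place was near the top: rank 2 in PWDfXB6m, 8 in B6fXPWDm, 36 in PWDfXC3Hm and 54 in PWDfX13Rm. With CAST it was lower, at percentiles 95.3 to 98.0 in the 5 crosses, and inbred CAST itself had it at percentile 95. With MOL and no CAST or PWD parent it was intermediate or weak, at percentiles 75.9 in MOLfXB6m, 65.6 in C3HfXMOLm, 63.1 in B6fXMOLm and 50.4 in MOLfX13Rm. Inbred PWD, whose nearest centre was 13424 bp away, and inbred MOL lacked it. The place was thus hybrid-only in crosses of PWD with B6 while inbred CAST had it too.

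A test of the PWD parent alone found no difference at Pdlim1. In crosses other than those of B6 with PWD the place was present in 3 of 4 with PWD and 8 of 13 without (Fisher's exact test, p = 1, adjusted p = 1). Beside this, 13.0% of hybrid-only hotspots of PWDfXB6m passed. For B6 the presence was 4 of 8 with and 7 of 9 without (Fisher's exact test, adjusted p = 0.763). Few hotspots had the same pattern over the 26 lists, 4 others (0.0748% of 5350). They included a place inside Ttk, a spindle checkpoint kinase gene, at percentile 75.5, and places near Tnrc6c and Phf3 at percentiles 87.0 and 82.7.

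The place named for Prdm9, the gene of the hotspot-specifying protein itself, lay outside the gene. It was centred 58466 bp from the 5′ end of Prdm9 (17:15543072-15564374, minus strand), on the upstream side, at 17:15620863-15624818 in B6fXMOLm. It was the strongest autosomal hotspot of B6fXMOLm and ranked 2 in MOLfXB6m and in C3HfXMOLm. The ranks were 15 in B6fXPWDm and in PWDfXC3Hm, 18 in B6fXCASTm, 21 in C3HfXCASTm, 29 in PWDfXB6m and 50 in CASTfXB6m. Percentiles in these 9 crosses ranged from 99.66 to 100, and the centres lay within 39 bp of each other.

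The Prdm9 place was found where parents from both of a pair of strain groups met. It was present in all 9 crosses of B6 or C3H with CAST, MOL or PWD, and in 0 of the other 17 lists. None of the 6 inbred lists had it. Nor did the crosses among B6, C3H and 13R (0 of 5), the crosses of 13R with MOL or PWD (0 of 2), or the crosses among CAST, MOL and PWD (0 of 3). The nearest centre in a list without it lay 8876 bp away. Since B6 and C3H could stand in for each other, and CAST, MOL and PWD too, no single strain marked the pattern. In crosses other than those of B6 with MOL, the place was present in 1 of 4 with MOL and 6 of 13 without (Fisher's exact test, adjusted p = 0.902). In the same crosses it was present in 4 of 8 with B6 and 3 of 9 without (Fisher's exact test, adjusted p = 0.965). The share of hybrid-only hotspots of B6fXMOLm that went with MOL was 17.9%.

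The same pattern recurred. Counting the Prdm9 place, 145 of the 2980 hybrid-only hotspots of B6fXMOLm, 4.87%, were in exactly those 9 crosses and no other list. The share was 4.48% in B6fXCASTm, 4.58% in CASTfXB6m, 3.92% in MOLfXB6m, 3.66% in B6fXPWDm and 2.69% in PWDfXB6m. The pattern was named after it was seen at Prdm9, so these shares describe how common it is and test nothing. The strongest with it in B6fXMOLm lay 118400 bp from Sash1, a signalling scaffold gene, at rank 3. Others lay near Setbp1 at rank 10 and near Arglu1 at rank 14. The hotspot near Sash1 was also the second strongest hybrid-only hotspot in B6fXCASTm and CASTfXB6m, at autosomal rank 3 in each.

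**Figure D2:**
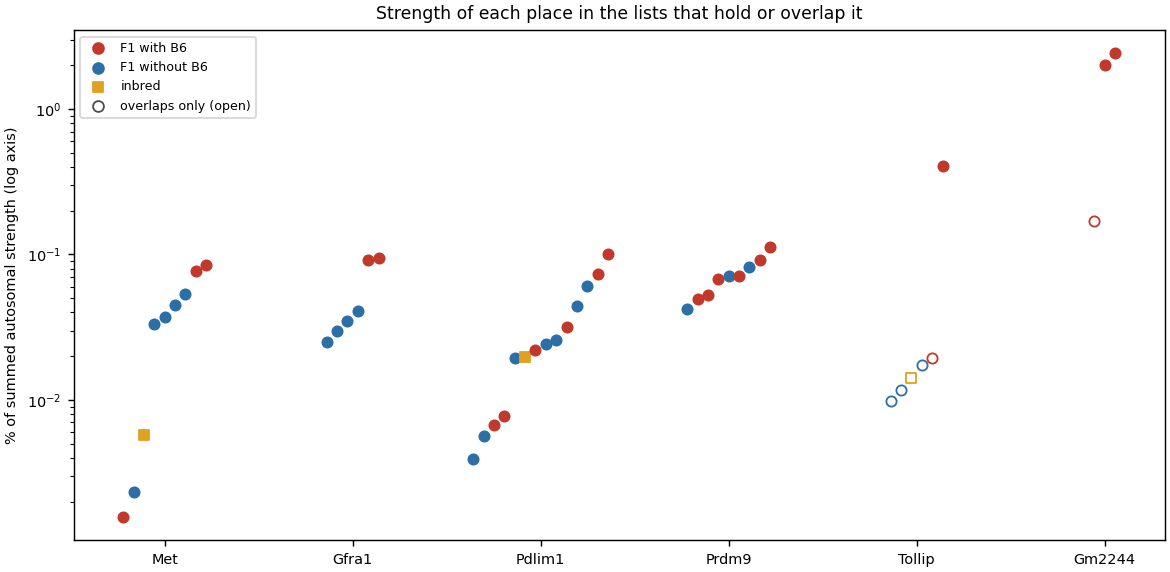
Strength of each place as a percent of the summed autosomal strength of a list (log axis), 1 point per list that holds or overlaps the place; circles are F1 crosses, with B6 (red) and without (blue), squares are inbred lists, and open symbols overlap the place with a centre 400 bp or more away. At Met and Gfra1 the crosses of B6 with the partner strain lie above the other crosses, at Prdm9 the 2 colours mix between 0.0421% and 0.113%, and the Gm2244 points reach 2.41%.

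Tollip encodes a ubiquitin-binding adaptor of Toll-like receptor signalling. Its hotspot in B6fX13Rm (7:141880062-141883529) covered the 3′ end of the gene (7:141881580-141902461, minus strand), with its centre 215 bp inside. By the distance rule it was present in B6fX13Rm alone. By overlap it was a 13R place: inbred 13R and all 5 crosses with 13R had a hotspot overlapping it, and none of the other 20 lists did. In 13R, 13RfXB6m, C3HfX13Rm, MOLfX13Rm and PWDfX13Rm the centre lay 614 to 672 bp away on the gene side, just past the distance that defines a shared place, and these 5 centres spanned 58 bp. Its standing as hybrid-only therefore rested on a centre 621 bp from that of 13R. In B6fX13Rm, 34.6% of hybrid-only hotspots had a parental centre under 1000 bp away, and 50.6% overlapped a parental hotspot.

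The Tollip interval in B6fX13Rm differed from the others mainly on the side beyond the gene. It began 876 to 1091 bp before the intervals of the other 5 lists and ended 253 to 444 bp before theirs. It was also far stronger within its list. It held rank 1 and 0.409% of summed autosomal strength in B6fX13Rm, against rank 1110 and 0.0194% in the reciprocal cross 13RfXB6m. The other percentiles were 91.2 in C3HfX13Rm, 89.2 in inbred 13R, 81.9 in MOLfX13Rm and 81.3 in PWDfX13Rm. Thus 1 library was extreme and 5 were moderate, but strength in B6fX13Rm chose the place, so the gap is a description.

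By centre distance the Tollip place was in 0 of 3 other crosses with 13R and 0 of 14 without (Fisher's exact test, p = 1, adjusted p = 1). A place in none of these crosses gives this outcome whatever their parents, so strain was not tested by that rule. When a shared place meant any overlap, the counts became 3 of 3 and 0 of 14 (Fisher's exact test, adjusted p = 0.0177). Under that rule the place was no longer hybrid-only, and it was kept in the adjusted set as a described place. Beside the main test, 10.3% of hybrid-only hotspots of the cross were present more often in crosses with 13R. Another 31 of its hybrid-only hotspots were in B6fX13Rm alone, 20% of the rest. The strongest of these lay 1087140 bp from Serpinb8, at rank 232, and was also the second strongest hybrid-only hotspot of the cross.

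**Figure D3:**
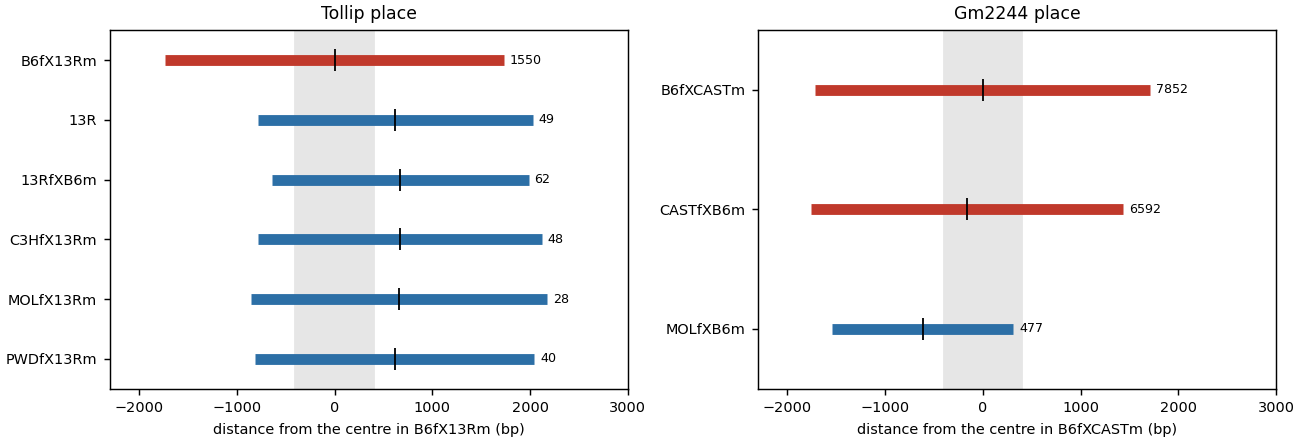
Hotspot intervals (bars) and centres (ticks) at the Tollip and Gm2244 places in every list that overlaps them, as distance in bp from the centre in B6fX13Rm or B6fXCASTm; the grey band marks centres under 400 bp away, red bars fall in it and blue bars do not, and the number is the deposited strength, which is not comparable between lists. The 5 blue centres at Tollip lie 614 to 672 bp to the right, and the MOLfXB6m interval at Gm2244 is the shorter one on the left.

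Gm2244 is a predicted protein-coding gene with no role given here (14:19533700-19549958, minus strand). The place named for it lay 115475 bp beyond its 3′ end, at 14:19416511-19419940 in B6fXCASTm. It was the strongest hotspot of B6fXCASTm, of CASTfXB6m and, on the autosomes, of MOLfXB6m. The CAST crosses had their centres 158 bp apart. The MOLfXB6m interval (14:19416687-19418538) lay wholly within that of B6fXCASTm, but its centre was 613 bp away, so by centre distance it was a different hotspot. Its reciprocal cross B6fXMOLm had nothing there, with the nearest centre 531961 bp away. The 23 lists with no overlapping hotspot, among them B6, CAST and MOL, had no centre closer than 86742 bp.

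The Gm2244 place stood apart in strength in both CAST crosses, and few hotspots lay around it. It held 2.41% of summed autosomal strength in B6fXCASTm and 2.0% in CASTfXB6m, but 0.170% in MOLfXB6m. It was narrower than most of the strongest hotspots of each list. Of the 100 strongest autosomal hotspots, 14 were narrower in B6fXCASTm, 9 in CASTfXB6m and 0 in MOLfXB6m. That count was 22 of 100 for Gfra1 in B6fXPWDm, and 51 to 80 for Met, Pdlim1, Prdm9 and Tollip in their choosing crosses. In MOLfXB6m the width of the Gm2244 hotspot was 1852 bp, and the median of the 100 strongest was 4522 bp. Within 100000 bp of the place, 24 of the 26 lists had no other hotspot, and no list had one inside Gm2244. Around the other 5 places the number of lists with none in that window was between 1 and 11.

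In crosses outside the choosing strain pair the Gm2244 place was absent by centre distance, in 0 of 3 with CAST and 0 of 14 without (Fisher's exact test, p = 1), and in 0 of 4 with MOL and 0 of 13 without for the MOLfXB6m hotspot (Fisher's exact test, p = 1). A place in none of the crosses gives this outcome whatever their parents, so strain was not tested by these counts. The background of calls was 15.3% for B6fXCASTm, 15.6% for CASTfXB6m and 14.8% for MOLfXB6m. Being confined to both B6 by CAST crosses is itself common, with 275 other hybrid-only hotspots of B6fXCASTm (8.56%) showing it. The strongest were inside Arfgef1 at rank 91, inside Mrps24 at rank 145 and near Cpsf6 at rank 188. Input samples were not analysed here, and whether a signal of this size reflects breaks was not tested.

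**Figure D4:**
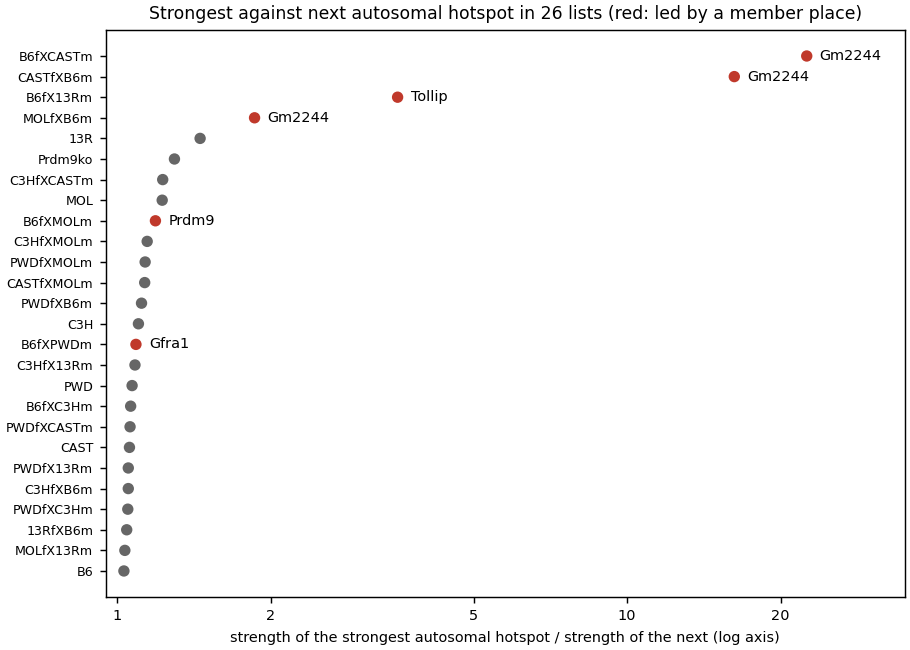
Ratio of the strongest to the next autosomal hotspot in each of the 26 lists (log axis), with lists led by a described place in red and labelled by gene. The 3 Gm2244 points and the Tollip point lie between 1.86 and 22.5, and the other 22 lists between 1.03 and 1.45.

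Set against the next autosomal hotspot of the same list, 2 of the 6 places stood apart, and part of that gap depended on leaving out the sex chromosomes. The Gm2244 score was 22.5 times that of the next autosomal hotspot in B6fXCASTm (7852 against 349), 16.2 times in CASTfXB6m (6592 against 406) and 1.86 times in MOLfXB6m (477 against 257, the Prdm9 place). The Tollip score was 3.55 times that of the next (1550 against 437). In the 22 lists not led by either, the strongest autosomal hotspot was 1.03 to 1.45 times the next. The Prdm9 place in B6fXMOLm, at 1.19 times, and the Gfra1 place in B6fXPWDm, at 1.09 times, lay inside that range. Set against the strongest other hotspot on any chromosome, the ratio at Tollip was 1.92, and that at Gm2244 was 13.2 in B6fXCASTm, 11.4 in CASTfXB6m and 0.859 in MOLfXB6m. The same ratio was 0.101 at Prdm9, below a Y hotspot, and 0.538 at Gfra1, below an X hotspot. By this measure Tollip stood apart less clearly. Its ratio was just above that of B6fXPWDm, whose strongest hotspot, on the X, was 1.86 times its next. It was below those of the 5 lists led by a Y hotspot, at 3.35 to 7.73. Apart from the lists led by Gm2244 on any chromosome, the rest were at 1.00 to 1.42. The Pdlim1 and Met places did not lead their lists: their scores were 0.896 of the strongest autosomal hotspot in PWDfXB6m, and 0.654 in B6fXC3Hm and 0.853 in C3HfXB6m.

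The second strongest hybrid-only hotspot of a cross was close to the described place in some crosses and far below it in others. In PWDfXB6m Pdlim1 (295) was 1.02 times as strong as a hotspot inside Tmc1, a hair-cell channel gene (289), and in B6fXPWDm Gfra1 (335) was 1.10 times as strong as the same Tmc1 hotspot (303). In B6fXMOLm the Prdm9 place was 1.19 times a hotspot near Dcc, a netrin receptor gene. Met was 1.75 and 1.67 times a hotspot inside Cntn4, a contactin gene, in B6fXC3Hm and C3HfXB6m. At Tollip the ratio was 10.4 and at Gm2244 36.0 in B6fXCASTm and 23.4 in CASTfXB6m.

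In genomic position the 6 places were mixed. The intervals of Gfra1 in B6fXPWDm, Pdlim1 in PWDfXB6m and Tollip in B6fX13Rm covered the 3′ end of their gene. How many other hybrid-only hotspots do so is not given here. Met, Pdlim1 and Tollip were centred inside their gene, beside 52.1% of all hybrid-only hotspots of the 10 crosses. Pdlim1 and Tollip were centred within 1000 bp of a gene end, in both cases the 3′ end, and Gfra1 narrowly missed that window; the background was 5.74%. None of the 6 was a hotspot of the Prdm9 knockout, where 4.16% of hybrid-only hotspots were, and the nearest knockout centre lay 8876 bp away, from the Prdm9 place. The Gfra1 and Pdlim1 places share chromosome 19.

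Relatives and partners of the member genes were followed by counting those with a hotspot centre in their span in any list; 71.2% of all autosomal protein-coding genes had one. Long genes have more room for a hotspot, and these counts are not adjusted for length. All 15 PR domain genes had one, led by Mecom and Prdm16 in 26 lists each, and Prdm9 itself had one in 7 lists. Of 9 GDNF ligand and receptor genes 6 had one, with Gfra1 in 22 lists and Gdnf in 12, while Ret had none. Of 7 PDZ and LIM genes 6 had one, with Pdlim1 in 19 lists and Pdlim5 in 16. Of 4 genes of the Met family 3 had one, with Met in 22 lists and its ligand gene Hgf in 5. Of 10 autosomal genes for Tollip partners and Toll receptor adaptors 9 had one, with Tom1l2 in 21 lists and Ticam2 in 15. The member genes are counted in these lists, and Met, Pdlim1 and Tollip have a hotspot in their span by the choice of the places.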

How the data were processed

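Each file lists the hotspots of 1 DMC1 library with chromosome, start, end and a strength score. The score in the deposited lists has no stated normalization, and 104 values lie below 0, so it was used within a list as a rank, percentile or share. CASAVA 1.8 and MACS2 2.0.10 are named, with build mm10, per the submitters' processing notes. Filters applied by the authors are not stated there. Of 31 samples, 5 inputs had no list and were not used. Starts were taken as 0-based and are printed 1-based. Genes came from a RefSeq table of GRCm38.p6, and strand from the matching promoter table. No exon annotation was used, so a place is given by gene span alone.

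Places were matched when centres lay under 400 bp apart. For each of the 23998 hybrid-only hotspots, presence in F1 crosses other than those of B6 with the same partner was compared between carriers and non-carriers of the partner strain, and of B6, by two-sided Fisher's exact test (scipy 1.17.1) with Benjamini-Hochberg adjustment and a threshold of 0.05. In these sets no carrier of the partner strain has a B6 parent, so the B6 comparison leans against B6 where a place follows the partner. The test was checked on simulated presence tables. Presence was drawn there independently for each cross, so the check does not cover crosses that share parents. Named hotspots are the 6 places, the second strongest hybrid-only hotspot of each choosing cross, up to 3 with the most similar presence over 26 lists (Jaccard index, ties by strength), and up to 2 leading genes per gene list. Members, lists and tests were chosen with earlier results of these data known. The hotspot chosen in 13RfXB6m is not reported here. The sequence of the places was not analysed here.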

Additional observations from a re-analysis of the deposited data

Results flagged for a closer look

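The rule for the 6 places covers chromosomes 1 to 19. On the Y chromosome, outside that rule, 5 lists held a hotspot stronger than any other in the list. It lay at Y:4150841-4152176 in B6fXMOLm with a score of 3820, 5.73 times the next hotspot on any chromosome. The same place scored 2446 in C3HfXMOLm, 1763 in CASTfXMOLm, 2329 in MOL and 4165 in PWDfXMOLm, which was 3.35 to 7.73 times the next hotspot. These are all 5 lists with a MOL father, and 0 of the 21 others had a centre under 400 bp from it. The intervals were 1298 to 1584 bp wide.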

How the results depend on the processing

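The number of hybrid-only hotspots present more often in other crosses with the partner strain was 3625 of 23998. It was 6524 of 40470 with reciprocal overlap of at least 50%, and 794 with the strongest 5000 hotspots of each list. It was 0 in the 9 crosses without B6, where 3733 passed an unadjusted Fisher's exact p of 0.05. Those 9 crosses are too few for this count to be informative, because even a complete split by strain did not pass after adjustment. Leaving out 1 cross gave 1157 to 3634, and the count moved by over 1.5 times without C3HfXCASTm (1157), PWDfXCASTm (1292), CASTfXMOLm (1470), MOLfX13Rm (2114), PWDfXC3Hm (2140), C3HfXMOLm (2166) or PWDfX13Rm (2249). No hotspot went with B6 by the adjusted exact test (2635 at an unadjusted p of 0.05), except 2221 with reciprocal overlap. Leaving out 1 cross gave 0 each time. That test holds no cross of B6 with the partner strain, so it leans against B6 for places that follow the partner. The Met and Gfra1 calls held under the 4 other matching rules and among the strongest 5000. They did not pass in the 9 crosses without B6 (Fisher's exact adjusted p of 0.306 and 0.136), where no hotspot passed. The difference in presence there was 80 percentage points at Met and 100 at Gfra1, against 84.6 and 100 in the 17 crosses. Since 100 is the largest difference possible, the 9 crosses cannot decide these calls. The Gfra1 call held without any 1 cross. The Tollip place passed with centres under 1000 bp, any overlap or reciprocal overlap (Fisher's exact adjusted p of 0.0166 to 0.0177). Under these 3 rules it was no longer hybrid-only, and it was kept in the adjusted set as a described place. The other 5 places stayed hybrid-only under the 5 matching rules. No paired analysis was possible because the labels give no replicate numbers and each genotype has 1 library; reciprocal crosses are given side by side. Read depth is unknown, so absence from a list may be a limit of detection.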
